A study of Drosophila melanogaster with 10 samples.

Results

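The long-range contacts of the chrX pericentromere in Drosophila S2 cells, an embryo-derived cell line, are described here: pairs of 5 kb bins whose starts lay 100 kb or more apart. The members were taken by distance alone, each pair once. They numbered 8256 of the 40796 bin pairs of the 5 measured chromosome arms. They spanned chrX:21659812-22397716 (dm3), a region of 148 bins, and ran up to 735 kb in distance. Because the deposited scores were smoothed, neighbouring bin pairs often carried identical values in every library, and such pairs were joined, which left 3059 contacts. A value was present in all 9 libraries for 2972 of them, and 2 had none in any library. One further sample, an unprocessed control, was not analysed here.

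The contacts were measured by 5C (chromosome conformation capture carbon copy), which reads out pairs of EcoRI fragments joined in the fixed nucleus by ligating a primer of each. The samples were 2 libraries of HP1a RNAi, 2 of Su(var)3-9 RNAi, 2 of mock RNAi and 3 of untreated WT cells, all of the same cell line. The RNAi cells received 1 µg of dsRNA and were harvested after 3 days, with the mock cells given dsRNA against GFP. The study checked the depletions by immunoblot, and the 5C libraries themselves carry no transcript or protein measurement. The methods call the WT replicates biological and the RNAi libraries duplicates, without saying whether the duplicates came from separate cultures, so p-values measure the spread between libraries, part of which may be technical. HP1a and Su(var)3-9 libraries together are called depleted below, and mock and WT libraries together are called controls.

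Pericentromeric heterochromatin is repeat-rich, gene-poor chromatin marked by methylation of histone H3 on lysine 9. Su(var)3-9 is a methyltransferase that places this mark, and HP1a is the protein that binds it through its chromodomain. HP1a also dimerizes, and mutations in the genes of both proteins classically suppress position-effect variegation in the fly.

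Each score is the log2 ratio of the observed contact frequency to that expected at the same distance, so 0 is the expectation and 1 is a doubling. The values rest on 82 primers of the chrX list, 40 forward and 42 reverse, numbered by EcoRI fragment from 16 to 229. These primers make fewer forward-reverse pairs than there are joined contacts, so joining did not leave separate measurements. Counts, shares and adjusted p-values over contacts below carry this limit. A few of the primers are shown because they bound the measured fragments and the widest step in the numbering, between 28 and 45. The sequences are 5′ to 3′ without the universal tails, and the capitals mark the EcoRI bases at the ligated end.
Reverse primer of fragment 16: TTCctaagtaaagagatagaatttctaggc
Forward primer of fragment 28: cagttctgcgtgactttgaatgacggaGAA
Reverse primer of fragment 45: TTCagaaacttaagggattacaaagttgta
Reverse primer of fragment 229: TTCtacgtagtcgctgtaatacaccgccac
No genome of this build was used, so the primers were not placed on the bins.

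Long-range values were missing in every library for 19 bins. These were the first 2 bins, 16 consecutive bins at chrX:21704812-21784812, and the last bin at chrX:22394812-22397716. Missing bin pairs made up 29.4% to 30.2% of the members in each of the 9 libraries. The number of reads behind a score is not in the deposited values, so no counting interval can be given. The study's read table lists fewer reads with the EcoRI site for every depleted library than for every control, so in any comparison of depleted with control libraries the depletion and the depth cannot be told apart.

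Most long-range contacts scored below expectation, and the level differed between replicates as well as between groups. A level below 0 was not particular to them. Medians of chrX contacts under 100 kb ran from -1.20 to -0.10 in depleted libraries and from -0.62 to -0.23 in controls. The mean long-range median of the other arms ran from -1.24 to -0.38 and from -0.88 to -0.38. The long-range chrX median was -0.48 and -0.26 in HP1a RNAi, -1.37 and -0.67 in Su(var)3-9 RNAi, -0.83 and -0.88 in mock RNAi, and -0.44, -0.42 and -0.87 in WT. Both HP1a libraries thus lay above both mock libraries, whereas the Su(var)3-9 libraries lay on either side of them. WT replicate 3 sat with mock RNAi rather than with the other 2 WT libraries. Group means were -0.37 ± 0.15 for HP1a RNAi and -1.02 ± 0.50 for Su(var)3-9 RNAi (SD, n = 2 each), against -0.86 ± 0.04 for mock RNAi (SD, n = 2) and -0.57 ± 0.25 for WT (SD, n = 3). The difference from mock RNAi was 0.49 for HP1a RNAi and -0.16 for Su(var)3-9 RNAi (two-sided exact permutation tests, p = 0.333 and p = 1). With 2 libraries against 2, p cannot go below 0.333. HP1a RNAi minus Su(var)3-9 RNAi was 0.65 (exact p = 0.333), and 0.30 or 1.00 without Su(var)3-9 replicate 1 or 2. The difference of mock RNAi minus WT was -0.28 (exact p = 0.4, smallest possible 0.2), and the 4 depleted minus the 5 control libraries was -0.0066 (exact p = 1, smallest possible 0.0159). None of the 23 group comparisons of per-library measures passed the adjustment over that family, in which the smallest adjusted p was 0.365.

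**Figure D1:**
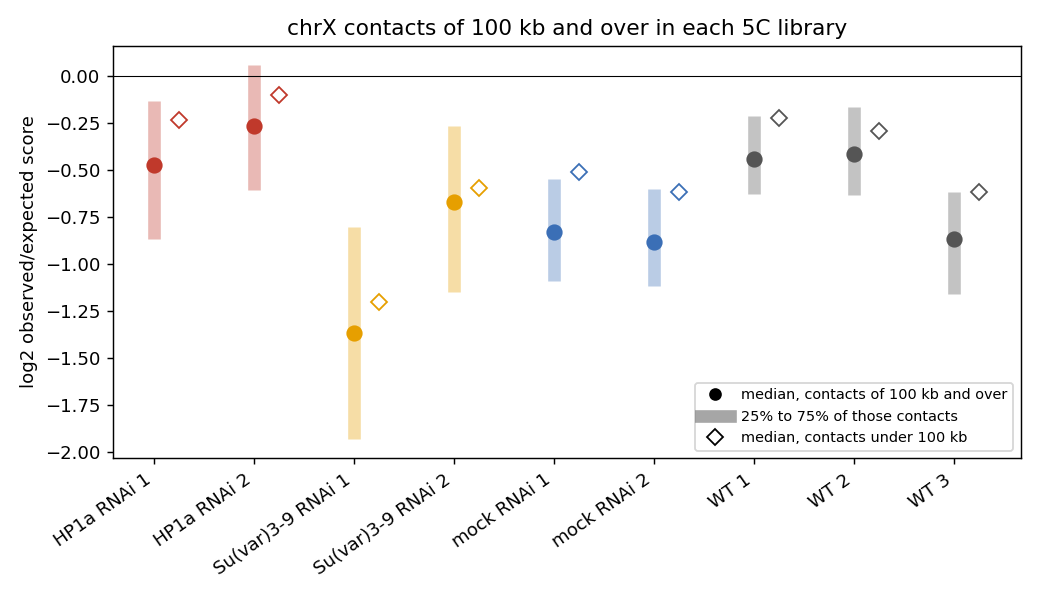
Median score of the chrX contacts of 100 kb and over (filled circles), their interquartile range (bars) and the median of chrX contacts under 100 kb (open diamonds), as log2 observed over expected in each library. Every open diamond lies above its circle, and the 4 depleted libraries have longer bars than the 5 controls.

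Once the median of all chrX contacts of a library was subtracted, the groups lay close together. The long-range median was then -0.076 and -0.048 in HP1a RNAi, -0.051 and -0.012 in Su(var)3-9 RNAi, -0.084 and -0.062 in mock RNAi, and -0.054, -0.032 and -0.080 in WT. The difference from mock RNAi became 0.011 for HP1a RNAi and 0.041 for Su(var)3-9 RNAi (exact p = 0.667 and p = 0.333). Most chrX contacts are long-range, so this centring by itself brings their median near 0. Among contacts under 100 kb the uncentred difference from mock RNAi was 0.40 for HP1a RNAi and -0.33 for Su(var)3-9 RNAi. Long-range contacts had a lower median than contacts under 100 kb in 9 of 9 libraries, the difference averaging -0.20 ± 0.08 (SD, n = 9; exact sign-flip permutation test, p = 0.0039, the smallest possible). This difference ranged from -0.32 in mock replicate 1 to -0.070 in Su(var)3-9 replicate 2. There was no jump at the limit itself. Bin pairs at 100 kb and at 95 kb had medians of -0.49 and -0.42 in HP1a replicate 1, for example, and of -0.33 and -0.30 in WT replicate 1.

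Contacts more frequent than expected, those with a score above 0, were a minority of the long-range contacts. They made up 17.9% and 29.3% in HP1a RNAi, 4.30% and 14.4% in Su(var)3-9 RNAi, 5.12% and 2.31% in mock RNAi, and 10.6%, 14.2% and 2.02% in WT. Both HP1a libraries exceeded all 5 controls, Su(var)3-9 replicate 2 narrowly did, and Su(var)3-9 replicate 1 did not. The higher HP1a shares were not particular to the long range. Among chrX contacts under 100 kb they were 32.9% and 40.1%, against 8.90% to 25.8% in controls. The Su(var)3-9 libraries had 5.92% and 13.6% there. At long range, depleted libraries averaged 16.5 ± 10.3% (SD, n = 4) and controls 6.84 ± 5.35% (SD, n = 5), a difference of 9.62 percentage points (exact p = 0.111). Centring each library on its chrX median changes the measure to contacts above that median, not above expectation. For these the difference was 3.24 points (exact p = 0.0476 before adjustment). Leaving out 1 library at a time, the uncentred difference ran from 5.35 to 13.7 points. The highest came without Su(var)3-9 replicate 1, the only depleted library not above all controls. A test without it could therefore only give its smallest possible p. Among the 2972 contacts with a value throughout, 255 (8.58%) scored above 0 in both HP1a libraries and in neither mock library, against 5.83% of the 15995 contacts of all arms. The reverse pattern, above 0 in both mock and neither HP1a library, was seen for 3 (0.101%, against 0.131% over all arms). For Su(var)3-9 RNAi 37 contacts (1.24%) were above 0 in both libraries and neither mock library, against 0.719% over all arms. Only 3 contacts scored above 0 in all 9 libraries, and 1502 did so in none (50.5%, against 58% over all arms).

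The scatter of the scores separated depleted from control libraries more clearly than their level did. The interquartile range of the long-range scores was 0.74 and 0.66 in HP1a RNAi, 1.13 and 0.88 in Su(var)3-9 RNAi, against 0.54 and 0.51 in mock RNAi and 0.41, 0.47 and 0.54 in WT. All 4 depleted libraries lay above all 5 controls, with means of 0.85 ± 0.20 (SD, n = 4) and 0.50 ± 0.05 (SD, n = 5). The difference was 0.36 (exact permutation test, p = 0.0159, the smallest possible; adjusted p = 0.365 over the 23 comparisons). This measure was chosen after the values had been seen. It was not particular to long-range chrX contacts. On chr2L the depleted libraries had 0.54 to 0.85 and the controls 0.36 to 0.48, and on chr2R they had 0.53 to 0.92 and 0.40 to 0.46. On chr3L the ranges were 0.59 to 0.95 and 0.38 to 0.42, with only 915 values there in Su(var)3-9 replicate 2. The groups overlapped on chr3R and, at 0.54 to 1.00 in depleted libraries and 0.44 to 0.59 in controls, for chrX contacts under 100 kb. The lower read numbers of the depleted libraries moved with it, and their part in the result was not tested.

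Contacts were also less alike between depleted libraries than between mock libraries. Pearson's r across the 2972 contacts, which share bins and are not independent, was 0.57 between the HP1a libraries, 0.49 between the Su(var)3-9 libraries and 0.72 between the mock libraries. In WT it ran from 0.37 to 0.67. WT replicate 3 reached 0.64 and 0.68 with the mock libraries but only 0.37 and 0.44 with WT replicates 1 and 2. HP1a libraries correlated with controls at 0.22 to 0.42, and Su(var)3-9 libraries at 0.056 to 0.26. Additive effects of the 2 bins of a pair accounted for 34.0% to 50.3% of the variance of the long-range scores in each library.

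The scores depended little on distance within the long range. The frequency expected at each distance was already taken out of them. This therefore does not show how contact frequency itself changes with distance. Contacts of 400 kb and over minus those under 200 kb gave -0.017 and 0.091 in HP1a RNAi, -0.13 and 0.027 in Su(var)3-9 RNAi, -0.038 and 0.0029 in mock RNAi, and -0.016, -0.11 and 0.030 in WT. All 4 groups held libraries on either side of 0, and the depleted minus control difference was 0.018 (exact p = 0.778). By distance band, the centred medians of all libraries stayed between -0.22 and 0.050 from 100 to under 500 kb. From 200 to under 300 kb, the Su(var)3-9 libraries were at 0.032 and 0.050, above the other 7, which lay from -0.15 to -0.038. From 600 kb upward only 34 to 37 contacts remained. There the centred medians were 0.50 and 0.20 in HP1a RNAi, -0.62 and -0.25 in Su(var)3-9 RNAi, 0.27 and 0.10 in mock RNAi, and 0.16, 0.011 and -0.29 in WT.

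**Figure D2:**
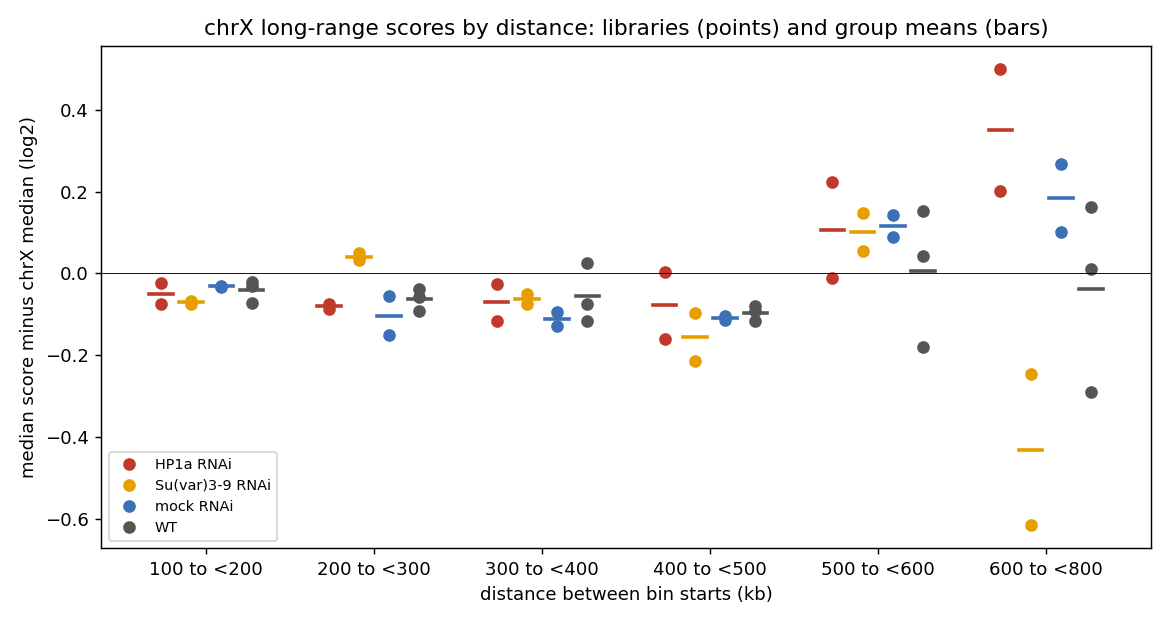
Median long-range score minus the chrX median of the library, in log2 units, for 6 bands of distance in kb, with a point per library and a short bar at each group mean. The libraries stay close to 0 up to 500 kb and spread out in the last band, where HP1a RNAi is at 0.50 and 0.20 and Su(var)3-9 RNAi at -0.62 and -0.25.

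Along the region, the highest bin in controls lay at its low-coordinate end. The median over the long-range contacts of a bin, minus the chrX median, was highest in controls in bin 5 (chrX:21679812-21684812). It was 0.23 and 0.45 in HP1a RNAi, -0.18 and 0.62 in Su(var)3-9 RNAi, 0.70 and 0.39 in mock RNAi, and 0.72, 0.97 and 0.23 in WT. Only Su(var)3-9 replicate 1 was below 0 there. Near the other end, bin 138 (chrX:22344812-22349812) averaged 0.37 ± 0.08 in depleted libraries (SD, n = 4) and 0.36 ± 0.11 in controls (SD, n = 5), and was positive in 9 of 9 libraries. The third bin by this order, bin 73 (chrX:22019812-22024812), holds a matrix attachment region (MAR), a stretch of DNA retained with the nuclear matrix. It averaged 0.03 ± 0.25 in depleted libraries (SD, n = 4) and 0.22 ± 0.08 in controls (SD, n = 5).

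The lowest bin in controls was bin 26 (chrX:21784812-21789812), the first after the empty stretch, with -0.58 ± 0.32 in depleted libraries (SD, n = 4) and -0.41 ± 0.22 in controls (SD, n = 5). It was negative in 9 of 9 libraries, as was bin 50 (chrX:21904812-21909812), at -0.40 ± 0.10 and -0.28 ± 0.06. Bin 79 (chrX:22049812-22054812) varied more, with -0.15 and -0.50 in HP1a RNAi, 0.37 and 0.53 in Su(var)3-9 RNAi, -0.47 and -0.77 in mock RNAi, and -0.04, 0.02 and -0.59 in WT. Both Su(var)3-9 libraries lay above the other 7 there.

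**Figure D3:**
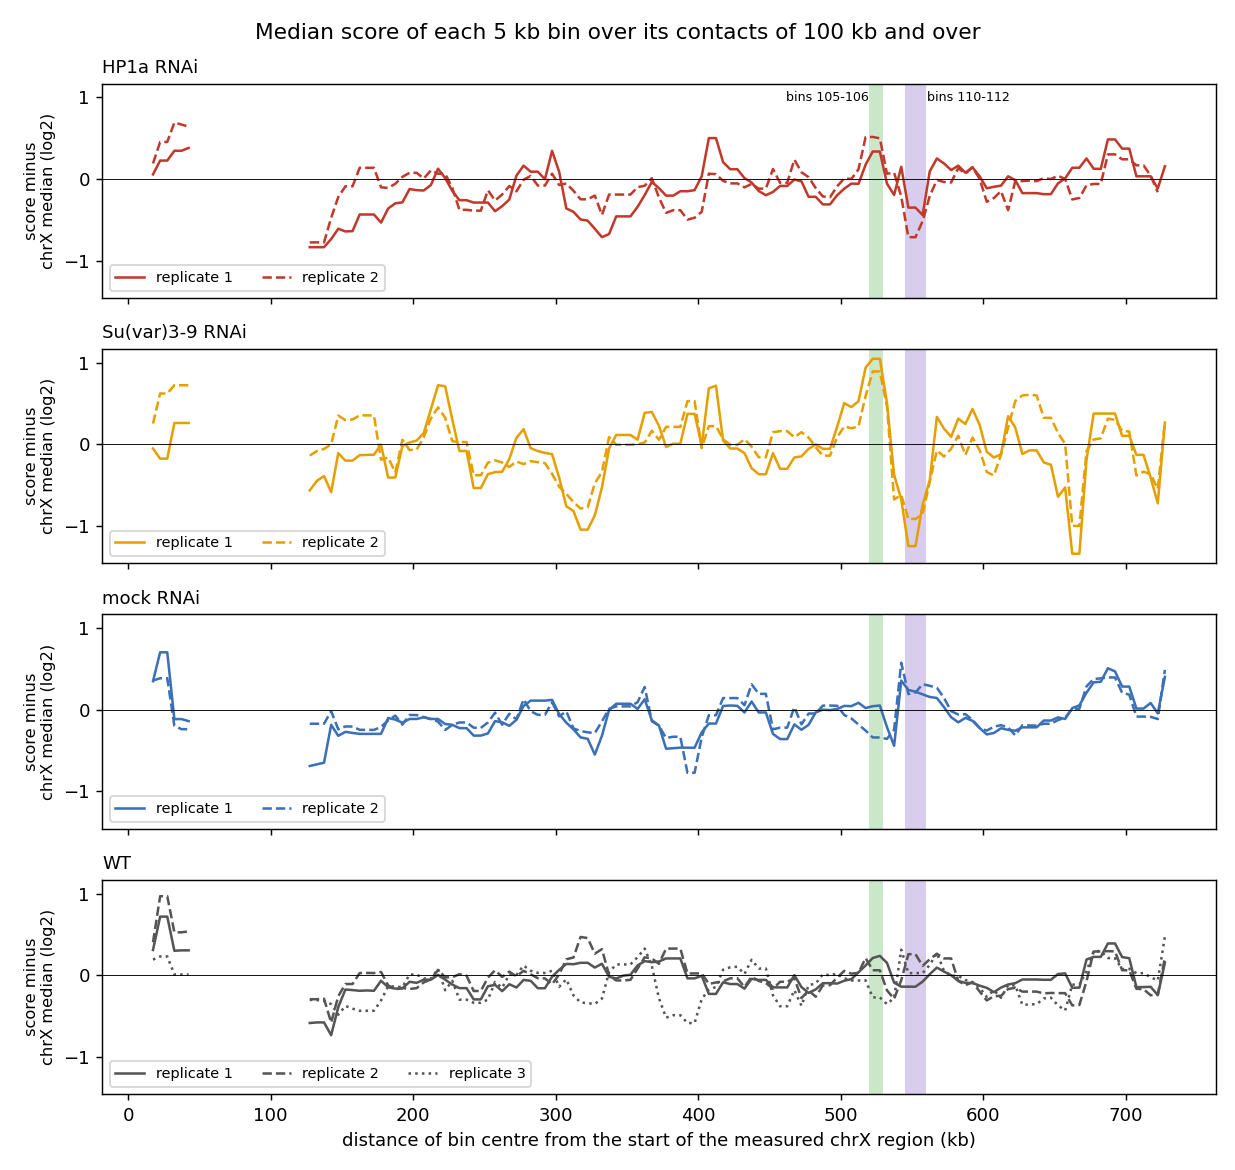
Median score of each 5 kb bin over its contacts of 100 kb and over, minus the chrX median of the library (log2), against distance in kb from the start of the measured region, with a panel per group and a line per replicate. Bins 105 and 106 (green band) rise to 1.05 in Su(var)3-9 replicate 1, and bins 110 to 112 (purple band) dip to -1.25, while controls stay between -0.34 and 0.31 in both bands.

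Depleted and control libraries did not overlap at 17 of the 124 distinct bins of chrX, with the depleted libraries above at 10 (8.06%) and below at 7 (5.65%). Over the 389 distinct bins of all 5 arms these shares were 12.9% and 13.6%. Both directions together made 13.7% on chrX, 41.6% of 101 bins on chr2L, 32.8% of 131 on chr2R, 4% of 25 on chr3R and 0 of 8 on chr3L, and the difference between arms was not tested. The bins at the extremes, chosen after their values were seen and given without a test, lay only 25 kb apart. At bin 110 (chrX:22204812-22209812), which holds a MAR, the median was -0.35 and -0.71 in HP1a RNAi, -1.25 and -0.91 in Su(var)3-9 RNAi, against 0.24 and 0.19 in mock RNAi and -0.14, 0.26 and 0.02 in WT. This rests on 87 bin pairs in every library. At bin 105 (chrX:22179812-22184812) it was 0.34 and 0.51 in HP1a RNAi, 1.05 and 0.89 in Su(var)3-9 RNAi, against 0.04 and -0.34 in mock RNAi and 0.21, 0.06 and -0.27 in WT. All 4 depleted libraries were outside the control range at both bins, Su(var)3-9 RNAi farther than HP1a RNAi.

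At other bins, also chosen after their values were seen, the Su(var)3-9 libraries lay below all the others. At bin 134 (chrX:22324812-22329812) the 2 Su(var)3-9 libraries averaged -1.17 ± 0.24 (SD, n = 2), while the HP1a libraries were at 0.14 and -0.23, mock RNAi at 0.05 and 0.01, and WT at -0.15, -0.37 and -0.12. Bin 64 (chrX:21974812-21979812) had -0.50 and -0.25 in HP1a RNAi, -1.05 and -0.79 in Su(var)3-9 RNAi, -0.34 and -0.26 in mock RNAi, and 0.15, 0.47 and -0.34 in WT. HP1a replicate 1 was below the controls there as well.

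To summarise the whole map, the region was divided into 6 segments of nearly equal bin number, A to F, of which A held only 7 bins with a value. Contacts of A with B were above the chrX median in all 9 libraries, averaging 0.48 ± 0.22 in depleted libraries (SD, n = 4) and 0.51 ± 0.31 in controls (SD, n = 5). Contacts of B with C were below it in all 9, at -0.42 ± 0.13 and -0.19 ± 0.11. Contacts that involved an outer segment, A or F, minus contacts among the inner 4 gave a positive difference in 8 of 9 libraries, from 0.0051 to 0.25. The exception was Su(var)3-9 replicate 1, at -0.071.

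**Figure D4:**
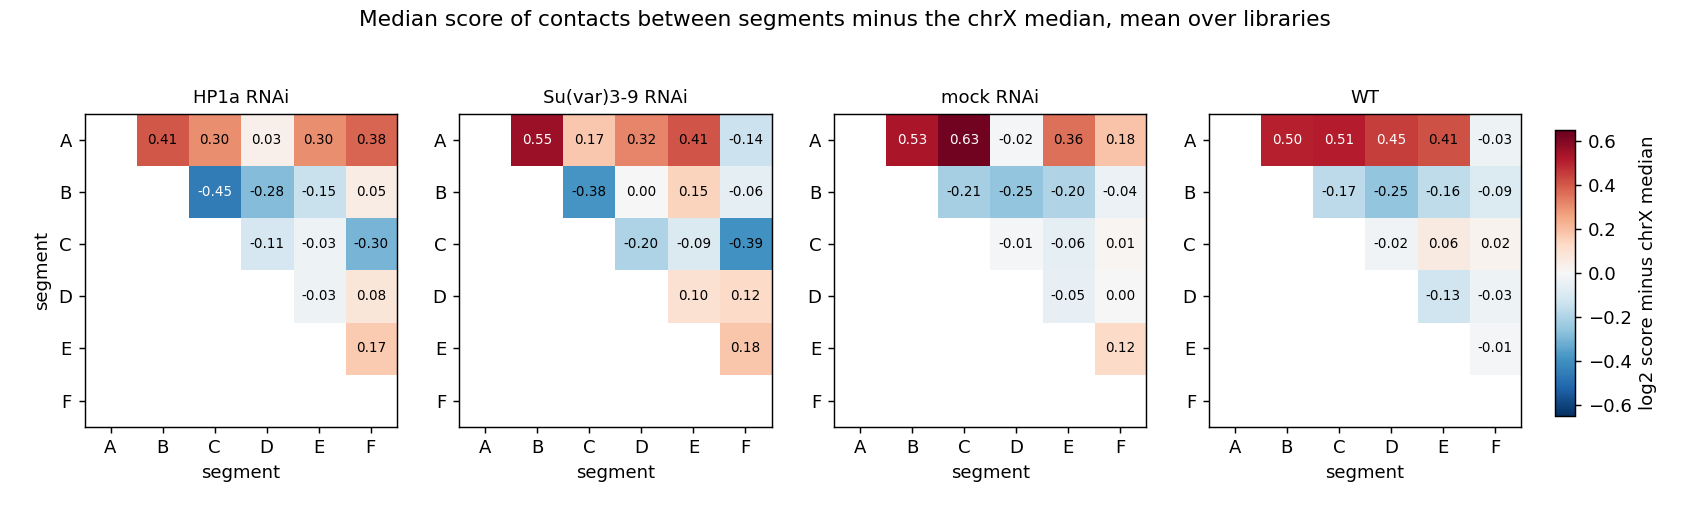
Centred median score (log2) of the contacts between each pair of segments, averaged over the libraries of a group, with segments A to F along the chromosome on both axes. The C to F square is at -0.30 in HP1a RNAi and -0.39 in Su(var)3-9 RNAi, against 0.01 in mock RNAi and 0.02 in WT.

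Of the 15 segment pairs, C with F was the only one at which depleted and control libraries did not overlap. C covers chrX:21909812-22029812 and F covers chrX:22279812-22397716, and 271 contacts joined them. Their centred median was -0.48 and -0.13 in HP1a RNAi, -0.47 and -0.31 in Su(var)3-9 RNAi, against 0.08 and -0.06 in mock RNAi and 0.08, 0.05 and -0.06 in WT. The difference was -0.37 (exact permutation test, p = 0.0159; adjusted p = 0.136 over the 15 pairs), so it did not pass the adjustment. In the uncentred scores it was -0.39 (exact p = 0.19). B with C was also lower in depleted libraries, by -0.23 (exact p = 0.0317; adjusted p = 0.136). B with E was higher by 0.18 (exact p = 0.0476; adjusted p = 0.136). Its centred median was -0.15 in both HP1a libraries and 0.15 and 0.14 in Su(var)3-9 RNAi, against -0.21 and -0.18 in mock RNAi and -0.18, -0.12 and -0.19 in WT. E with F was higher by 0.14 (exact p = 0.0317; adjusted p = 0.136).

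Single contacts were then tested with limma, fitted over the 15995 contacts of the 5 arms with a value in all 9 libraries and adjusted over all of them. The 5 arms held 24756 joined contacts. Most of chr3L dropped out, because Su(var)3-9 replicate 2 had only 915 long-range values there. Shares of the 15995 therefore hold little of chr3L. A contact was called at an adjusted p under 0.05. HP1a RNAi against mock RNAi gave 0 calls among the 2972 long-range chrX contacts and 0 over all arms (0% of 15995). At an unadjusted p under 0.05 there were 558 chrX contacts (18.8%, against 9.67% over all arms), 539 higher and 19 lower in HP1a RNAi, and the median difference was 0.46 on chrX at long range and 0.34 over all arms. With only the HP1a and mock libraries in the fit, limma called 363 (12.2%, against 5.68% over all arms), 346 higher and 17 lower. With each arm of each library centred, limma called 22 contacts (0.74%), 13 higher and 9 lower, against 0.506% over all arms (0.231% higher and 0.275% lower).

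Su(var)3-9 RNAi against mock RNAi gave 33 calls (1.11%), 2 higher and 31 lower, against 0.775% over all arms. By direction the shares over all arms were 0.0188% higher and 0.756% lower. Of the 31 lower ones 15 joined C with E, the pair with the most contacts tested (15 of 445, 3.37%). A with E had a larger share, 3 of 56 (5.36%). Bins 110 and 111 each took part in 8 of the lower calls, out of 61 contacts each. The 2 higher calls both involved bins 82 and 83 (chrX:22064812-22074812). With only the Su(var)3-9 and mock libraries in the fit there were 0 calls, as with the replicate number as a block, so every Su(var)3-9 call described below is lost in both. The deposited scores of Su(var)3-9 RNAi were lower as a whole, with a median difference of -0.19 at long range and -0.40 over all arms. After each arm was centred there were 644 calls (21.7%), 317 higher and 327 lower, against 21.1% over all arms (9.97% higher and 11.1% lower), and the first 33 were all among them with the same direction. Leaving out either mock library gave 0 calls, and the direction of the calls depended on which Su(var)3-9 library was left out. Without replicate 1 there were 608 (20.5%, against 35.2% over all arms), 378 higher and 230 lower. Without replicate 2 there were 927 (31.2%, against 30.3% of the 23890 contacts then tested), 85 higher and 842 lower.

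The 4 depleted against the 5 control libraries gave 0 calls among the long-range contacts and 0% over all arms, with 559 contacts at an unadjusted p under 0.05 (18.8%, against 22% over all arms). Centring gave 596 (20.1%), 284 higher and 312 lower, against 21.7% over all arms (9.98% higher and 11.7% lower). Without a test, 185 contacts (6.22%) had all depleted libraries above all controls once centred and 168 (5.65%) had them below, against 7.25% and 9.08% over all arms. In that centred fit contacts of C with F were called lower at 63 of 254 (24.8%) and higher at 0. The largest share of higher calls between segments was that of D with F, with 47 of 218 higher and 9 lower, and E with F had 34 of 183 higher and 16 lower. B with E had 59 of 373 higher and 27 lower. Mock RNAi against WT gave 0 calls with limma, in deposited as in centred scores, with 85 (2.86%, against 2.13% over all arms) and 165 (5.55%, against 3.23%) at an unadjusted p under 0.05.

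The contacts with the smallest limma p against mock RNAi showed both shared and separate behaviour of the depletions. Because both depletions were set against the same 2 mock libraries, their differences are not independent. The SD between the 2 Su(var)3-9 libraries was 0.543978 at several contacts named below. These were E with F at 100 kb, A with F at 632.5 kb, D with F at 270 kb and B with D at 262.5 kb. Replicate 2 thus lay above replicate 1 by the same step at each. Whether the 2 libraries are independent measurements there was not tested. The lowest p for HP1a RNAi belonged to the contact of chrX:22124812-22129812 with chrX:22344812-22354812, 222.5 kb apart, between D and F. It scored 1.63 and 1.55 in HP1a RNAi, -0.61 and -0.17 in Su(var)3-9 RNAi, -0.75 and -0.45 in mock RNAi, and -0.12, -0.07 and -0.97 in WT. The HP1a libraries alone were above 0, and the difference from mock RNAi was 2.19 ± 0.38 (SE; limma adjusted p = 0.367, and 0.0288 after centring).

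At the contact of chrX:22179812-22184812 with chrX:22279812-22284812, at the 100 kb limit, all 4 depleted libraries exceeded the controls. It scored 0.52 and 0.49 in HP1a RNAi, -0.10 and 0.67 in Su(var)3-9 RNAi, -1.42 and -1.50 in mock RNAi, and -0.79, -0.57 and -1.07 in WT. The difference from mock RNAi was 1.97 ± 0.34 (SE) for HP1a RNAi and 1.74 ± 0.34 (SE) for Su(var)3-9 RNAi. The limma adjusted p was 0.367 and 0.05002, just outside the threshold for Su(var)3-9 RNAi. After centring it was 0.025 for HP1a RNAi and 0.00197 for Su(var)3-9 RNAi.

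The joined contact of chrX:21679812-21704812 with chrX:22319812-22329812, which spans 632.5 kb between the 2 ends of the region, separated the depletions. It scored 0.43 and 0.93 in HP1a RNAi, -3.10 and -2.33 in Su(var)3-9 RNAi, against -1.13 and -1.63 in mock RNAi and -1.77, -1.66 and -1.35 in WT. The HP1a libraries lay above all 5 controls and the Su(var)3-9 libraries below them. In limma HP1a RNAi minus mock RNAi was 2.06 ± 0.37 (SE; adjusted p = 0.367) and Su(var)3-9 RNAi minus mock RNAi was -1.33 ± 0.37 (SE; adjusted p = 0.0868). The direct limma difference between the depletions was 3.40 ± 0.37 (SE; adjusted p = 0.0169). The contact was named for its HP1a RNAi p against mock RNAi, and the same HP1a values enter this direct test. With only the libraries of the 2 depletions in the fit, the direct comparison gave 0 calls, as with the replicate block, so this call is lost in both. Over all contacts, HP1a RNAi against Su(var)3-9 RNAi gave 35 calls among the long-range contacts (1.18%, against 0.531% over all arms), all higher in HP1a RNAi. The centred fit gave 134 (4.51%, against 2.74%), 80 higher and 54 lower, against 1.53% and 1.21% over all arms.

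**Figure D5:**
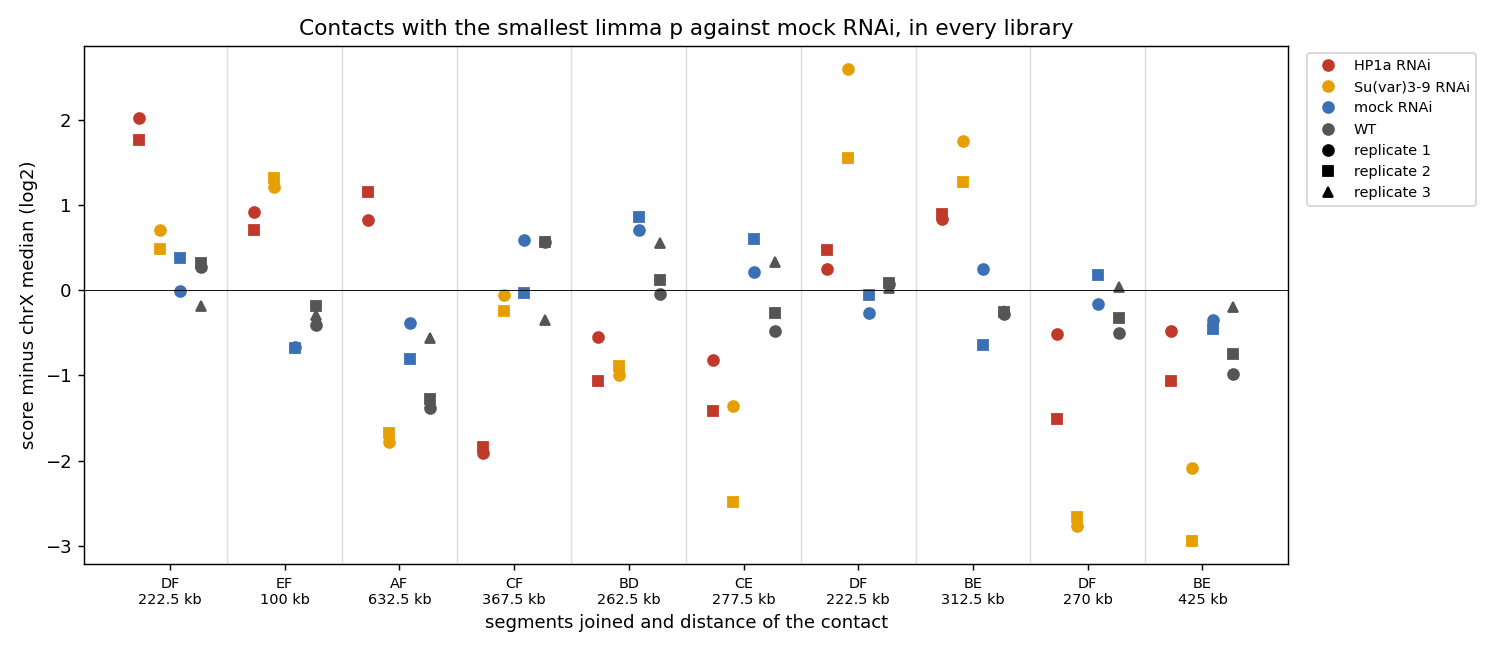
Score minus the chrX median (log2) in every library for the 10 distinct contacts with the smallest limma p against mock RNAi, labelled by the segments they join and their distance in kb. Colours are groups and symbols are replicates; the AF contact shows HP1a RNAi at 0.83 and 1.15 and Su(var)3-9 RNAi at -1.78 and -1.67.

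Among contacts lower than mock RNAi, that of chrX:21919812-21929812 with chrX:22199812-22204812 (277.5 kb, C with E) was low in both depletions. It scored -1.22 and -1.63 in HP1a RNAi, -2.68 and -3.14 in Su(var)3-9 RNAi, against -0.53 and -0.22 in mock RNAi and -0.87, -0.65 and -0.46 in WT. It fell by 2.53 ± 0.33 in Su(var)3-9 RNAi (SE; limma adjusted p = 0.0386). In HP1a RNAi the difference was -1.05 ± 0.33 (SE; adjusted p = 0.425). The contact of chrX:22049812-22059812 with chrX:22319812-22329812 (270 kb, D with F) scored -0.92 and -1.73 in HP1a RNAi, -4.08 and -3.31 in Su(var)3-9 RNAi, against -0.91 and -0.64 in mock RNAi and -0.89, -0.72 and -0.75 in WT. The Su(var)3-9 libraries were far below all others, and the contact fell by 2.92 ± 0.38 (SE; limma adjusted p = 0.0386). It is among those with the same step between the 2 Su(var)3-9 libraries. A 1-pair contact of chrX:21844812-21849812 with chrX:22269812-22274812 (425 kb, B with E) fell by 2.32 ± 0.31 in Su(var)3-9 RNAi (SE; limma adjusted p = 0.0386), where it scored -3.40 and -3.60, against -0.88 and -1.28 in HP1a RNAi and -1.09 and -1.28 in mock RNAi.

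The contact of chrX:22064812-22074812 with chrX:22284812-22299812 (222.5 kb, D with F) joined 6 bin pairs and was one of the 2 called rises. It scored -0.15 and 0.26 in HP1a RNAi, 1.27 and 0.90 in Su(var)3-9 RNAi, against -1.01 and -0.87 in mock RNAi and -0.32, -0.30 and -0.76 in WT. In Su(var)3-9 RNAi it rose by 2.03 ± 0.32 (SE; limma adjusted p = 0.0442). In HP1a RNAi the difference was 0.99 ± 0.32 (SE; adjusted p = 0.434), and both HP1a libraries also exceeded all 5 controls.

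For HP1a RNAi the lowest contacts relative to mock RNAi included that of chrX:21969812-21974812 with chrX:22334812-22344812 (367.5 kb, C with F). It scored -2.31 and -2.06 in HP1a RNAi, -1.38 and -0.90 in Su(var)3-9 RNAi, -0.16 and -0.85 in mock RNAi, and 0.18, 0.18 and -1.14 in WT. The difference from mock RNAi was -1.68 ± 0.48 (SE; limma adjusted p = 0.396, and 0.033 after centring). The contact of chrX:21784812-21799812 with chrX:22049812-22059812 (262.5 kb, B with D) was low in all 4 depleted libraries. It scored -0.95 and -1.28 in HP1a RNAi, -2.31 and -1.54 in Su(var)3-9 RNAi, against -0.04 and 0.03 in mock RNAi and -0.43, -0.27 and -0.24 in WT. In Su(var)3-9 RNAi it fell by 1.92 ± 0.34 (SE; limma adjusted p = 0.0442). In HP1a RNAi the difference was -1.11 ± 0.34 (SE; adjusted p = 0.413).

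The remaining contact named by the rule, of chrX:21869812-21874812 with chrX:22179812-22189812 (312.5 kb, B with E), ended in bins 105 and 106. It scored 0.44 and 0.68 in HP1a RNAi, 0.43 and 0.62 in Su(var)3-9 RNAi, against -0.50 and -1.46 in mock RNAi and -0.66, -0.64 and -1.03 in WT. All 4 depleted libraries were above 0 and all 5 controls below it. Of the 2972 contacts 11 (0.37%) had this pattern, against 0.188% over all arms, and 0 had the opposite one.

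The contacts with the highest mean score in controls all started in segment A. That of chrX:21689812-21704812 with chrX:22179812-22194812, 490 kb apart, scored 1.90 and 1.99 in HP1a RNAi, 2.54 and 1.72 in Su(var)3-9 RNAi, 2.39 and -1.16 in mock RNAi, and 2.84, 0.58 and 1.29 in WT. It was above 0 in every library but mock replicate 2. A 162.5 kb contact of chrX:21679812-21689812 with chrX:21844812-21849812 was steadier in controls, at 0.60 to 1.20. It was at 1.02 and 1.21 in HP1a RNAi and at -0.45 and 0.08 in Su(var)3-9 RNAi, below all the other libraries. The lowest contact in controls joined the same A bins, chrX:21689812-21704812, to chrX:22364812-22379812 at 675 kb. It scored -2.41 and -1.10 in HP1a RNAi, -2.16 and -2.82 in Su(var)3-9 RNAi, -2.28 and -2.66 in mock RNAi, and -2.31, -1.95 and -2.91 in WT.

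Of the genes in the region, 5 had dm3 coordinates in the tables used here. These came from the study's list of genes changed on knockdown of dMES-4, a histone methyltransferase. They are therefore not a neutral sample of the genes in the region. Usp2 (bins chrX:21854812-21874812) encodes a ubiquitin-specific protease. The gene fog, or folded gastrulation (bins chrX:22224812-22259812), encodes the secreted ligand that drives apical constriction of cells in the gastrulating embryo. The others were l(1)G0196 (bins chrX:21884812-21914812), CG42346 (bins chrX:22229812-22289812) and CG34334 (bins chrX:22269812-22279812). The bins of CG42346 (12 bins) had a centred long-range median of 0.03 and -0.03 in HP1a RNAi, 0.20 and -0.06 in Su(var)3-9 RNAi, against -0.22 and -0.19 in mock RNAi and -0.10, -0.16 and -0.12 in WT. All depleted libraries exceeded all controls (difference 0.19; exact permutation test, p = 0.0159; adjusted p = 0.0794 over the 5 genes). The bins of fog overlap those of CG42346, and their values ran from -0.07 to 0.25 in depleted libraries and from -0.10 to -0.01 in controls (exact p = 0.0794; adjusted p = 0.159). The bins of Usp2, l(1)G0196 and CG34334 overlapped between the groups, with adjusted p of 0.159 to 0.429.

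Contacts between genes were tested for the 6 gene pairs 100 kb or more apart, and no pair passed (adjusted p from 0.476 to 0.651). Usp2 with fog, over 28 bin pairs, had centred medians of 0.34 and -0.01 in HP1a RNAi, 0.68 and -0.10 in Su(var)3-9 RNAi, -0.19 and 0.07 in mock RNAi, and 0.01, 0.01 and 0.03 in WT. The depleted replicates of each kind differed from each other by more than the 5 controls did. l(1)G0196 with CG42346 was at or below -0.29 in all controls, while it was 0.04 and -0.49 in HP1a RNAi, -0.41 and -0.29 in Su(var)3-9 RNAi.

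A MAR lay in 32 of the 129 bins with a long-range value. Bin pairs with a MAR at both ends minus those with none gave a median difference from -0.12 to 0.25 over the 9 libraries, below 0 in 6 and above 0 in 3. The mean was 0.0006 ± 0.10 (SD, n = 9; exact sign-flip permutation test, p = 0.98). The highest value was that of Su(var)3-9 replicate 1, and the mean without it was -0.031.

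Compared with the same class of contacts on chr2L, chr2R, chr3L and chr3R, the chrX long-range median was set apart in neither direction. The chrX median minus the mean of the 4 arm medians was 0.17 and 0.11 in HP1a RNAi, -0.17 and 0.57 in Su(var)3-9 RNAi, 0.04 and -0.09 in mock RNAi, and 0.10, -0.03 and -0.18 in WT, with a mean of 0.06 ± 0.23 (SD, n = 9; exact sign-flip permutation test, p = 0.555). In Su(var)3-9 replicate 2 the chr2L median was -2.49 and only 915 chr3L contacts had a value, against 7836 to 7980 in the other libraries. Without that library the mean was -0.0063.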

How the data were processed

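According to the study's methods, reads with primer pairs were mapped with Bowtie2 (dm3), normalized to total mapped reads and an expected frequency, and processed in my5C against a control that had not been crosslinked. What the authors deposited are scores per bin pair, log2 of observed over expected, with 5 kb bins on chrX and 10 kb bins elsewhere, median binned and smoothed over 10 kb. The binning and smoothing let neighbouring bin pairs share reads, so they are not independent. The values are not counts. A score of 0 was taken as missing. Neighbouring bin pairs with identical scores in all libraries were joined. Each library gave 1 value per measure, compared by two-sided exact permutation tests, with Benjamini-Hochberg adjustment. limma 3.58.1 (R 4.3.3) was run on the deposited log2 scores and tested on simulated data; other steps used Python 3.11.15, numpy 2.4.6, scipy 1.17.1 and pandas 2.3.3. Bin medians needed at least 20 bin pairs.

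Named contacts were the 3 highest and 3 lowest by control mean, and for each depletion the 3 smallest limma p in each direction with both depleted libraries on the same side of both mock libraries, skipping contacts with both bins within 25 kb of one already taken. Named bins were the 3 highest and 3 lowest in controls, at least 25 kb apart. All 15 segment pairs, the genes with dm3 coordinates and the MARs were included. The primers were not placed on contacts. The members, segments and lists were chosen with earlier results of these data known. The alternatives covered joining, missing values, centring, a 200 kb limit, bin and distance effects, the limma settings, each left-out library and the replicate block. The interquartile range, the MAR difference, limma between the depletions, and the alternatives for segments C with F and bin 110 were added after the data were seen.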

Additional observations from a re-analysis of the deposited data

Results flagged for a closer look

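Per-library measures were checked for a library far from the rest of its set in 18 sets, of which chance alone would pick about 1 in 20, and 2 were picked. The outer minus inner segment difference of Su(var)3-9 replicate 1 was -0.071, while the other 3 depleted libraries lay between 0.20 and 0.21. The chrX minus other-arm median of Su(var)3-9 replicate 2 was 0.57, the highest of the 9 libraries. At 35 long-range contacts the 2 depletions differed from each other by limma's direct test, HP1a RNAi being the higher, although both were set against the same mock libraries. Without either HP1a library that test gave 0 calls, and without Su(var)3-9 replicate 1 or 2 it gave 578 (19.4%, against 36.7% over all arms) and 1586 (53.4%, against 46.2%).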

How the results depend on the processing

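Direction held under every alternative run for the long-range median of HP1a RNAi against mock RNAi, for the interquartile ranges and for long minus short contacts. The size of the HP1a median difference did not hold, as centring took it from 0.49 to 0.011. Without HP1a replicate 2 the centred difference was -0.0030. Centring on the chrX median turned the long-range median difference to 0.041 for Su(var)3-9 RNAi against mock RNAi, to -0.030 for HP1a RNAi against Su(var)3-9 RNAi, and to 0.016 for depleted against control libraries. That last difference was also 0.0087 with a 200 kb limit, 0.17 without WT replicates 1 and 2 and 0.16 with mock RNAi as the sole control. With centring, the positive contacts became those above the library's chrX median instead of above expectation. The depleted minus control difference in these was 3.24 points, past the unadjusted threshold. Far minus near contacts became -0.029 (HP1a RNAi against mock RNAi) and -0.041 (depleted against controls) with bin effects removed, and 0.045 (Su(var)3-9 RNAi against mock RNAi) over every bin pair. Outer minus inner contacts became -0.034 with a 200 kb limit and -0.0093 with bin effects removed (HP1a RNAi), 0.042 with bin effects removed (Su(var)3-9 RNAi), and 0.027, 0.0015 and 0.0068 over every bin pair, with zeros kept and with bin effects removed (depleted against controls). The cause was not tested.

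limma's calls moved to 22 with centring and 363 with only the compared groups in the fit (HP1a RNAi against mock RNAi), to 644, 0 and, over every bin pair, 112 (Su(var)3-9 RNAi), to 596 with centring and 60 over every bin pair (depleted against controls), and to 134, 0 and 123 (HP1a RNAi against Su(var)3-9 RNAi). 

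Leaving out 1 library at a time, where a lone library of a group is assumed in limma to vary like the other groups, the long-range median difference ran from -0.51 to 0.19 for Su(var)3-9 RNAi against mock RNAi and from -0.15 to 0.22 for depleted against controls, from 0.30 to 1.00 for HP1a RNAi against Su(var)3-9 RNAi, and the centred one of HP1a RNAi from -0.0030 to 0.025. The difference in positive contacts ran from 5.35 to 13.7 points. Far minus near ran from -0.11 to 0.045 (Su(var)3-9 RNAi) and from -0.014 to 0.059 (depleted against controls), outer minus inner from -0.044 to 0.047 (HP1a RNAi) and from -0.064 to 0.045 (depleted against controls), chrX minus other arms from -0.0063 to 0.088, and the MAR difference from -0.031 to 0.016. limma's calls ran from 0 to 927 (Su(var)3-9 RNAi against mock RNAi), from 0 to 546 (depleted against controls) and from 0 to 1586 (HP1a RNAi against Su(var)3-9 RNAi). Of these, 546 (427 higher and 119 lower) and 438 (190 higher and 248 lower) came without Su(var)3-9 replicates 1 and 2.

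The deviations of same-numbered libraries correlated at -0.080 to 0.20 between groups over the long-range contacts and at -0.40 to 0.28 over the 15995 contacts of all arms, so the numbers were not taken as a pairing. For depleted against control libraries, the replicate block of the per-library measures left out WT and took mock RNAi as the sole control. The depleted minus mock median was then 0.16 and the interquartile range difference was 0.33 (exact permutation p = 0.5, the smallest possible). These values therefore also reflect the change of control group. In limma, with all groups kept, the block gave 0 calls for Su(var)3-9 RNAi against mock RNAi and for HP1a RNAi against Su(var)3-9 RNAi. Crossing the Su(var)3-9 numbers in the block, tried after the data were seen, gave 0 calls against mock RNAi as well.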
